A study of Mus musculus with 4 samples.

Results

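The proteasome genes of mouse tongue epithelial cells were followed across 4 RNA sequencing libraries. Members were the genes with a mouse Ensembl identifier whose symbol begins with Psma, Psmb, Psmc, Psmd, Psme, Psmf or Psmg and a number, leaving out Psmb8, Psmb9 and pseudogenes named with the ending ps. The rule used names only, and it found 48 of 54446 genes. Of these, 46 passed the filter on low counts, which kept 21916 genes in all. The 2 members under the filter were Psma8, with 5 and 2 counts in the libraries titled Otub2 KO 3 and 4 and 5 and 14 in the controls, and Psmb11, with 5 and 5 counts against 16 and 7.

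The libraries came from epithelial cells derived from the tongue of C57BL/6 mice and grown in RPMI-1640 medium with serum. In 2 of them, called KO 3 and KO 4 here, the genotype label gives Otub2 as knocked out systemically, and in the other 2, Control 1 and Control 2, it gives wild type. Otub2 encodes an enzyme of the OTU family that removes ubiquitin. The labels give neither the age of the mice nor the part of Otub2 that was removed, and nothing in them ties a library to its own animal or culture. P-values below describe the scatter between these libraries, and that scatter may be technical.

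The proteasome is the main protease of the cytosol and nucleus and degrades proteins that carry ubiquitin chains. Its core particle, 20S, is a barrel of alpha rings around beta rings, and some beta subunits hold the catalytic sites. The regulatory particle, 19S, caps the barrel. Its ATPases unfold the substrate and open the gate, and its other subunits bind the substrate and remove ubiquitin. Ubiquitin chains are the substrate of deubiquitinases, the class to which Otub2 belongs. The transcription factor NFE2L1 raises proteasome genes together when proteasome activity is short.

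Total counts were 23017183 and 19085713 in KO 3 and KO 4, and 12541345 and 11882900 in Controls 1 and 2. KO 3 stood apart: 13 markers of salivary secretory cells took 26.7% of its gene counts. In each of the other libraries they took at most 0.00327%. In KO 3 most of that share was Mucl2 alone, with 5462635 of its 22719550 gene counts. Smr3a, Dcpp1, Dcpp2 and Dcpp3 were at 0 there. Markers of cardiomyocytes took 1.39% there and at most 0.0121% elsewhere. The 8 keratinocyte markers, all detected in every library, took 1.73% and 4.20% of gene counts in KO 3 and KO 4 and 6.43% and 5.85% in the controls. Single markers differed from this sum in KO 4. In raw counts, Krt14 had 330108 in KO 4 and 361887 and 294481 in Controls 1 and 2. Krt5 had 169922 against 71804 and 66080, and Trp63 had 10869 against 4464 and 4733, more than the library totals differ. Otub2 itself was at 19 and 24 CPM in KO 3 and KO 4 against 27.5 and 26.9 CPM in Controls 1 and 2 (log2 fold change -0.34, edgeR adjusted p = 0.485). In the deposited table the headings of these columns read OE with the numbers 3 and 4, whereas the titles read KO, so KO stands here for the title. Counts of edgeR calls below are also given without KO 3.

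No proteasome gene passed the test between the groups. With edgeR's quasi-likelihood test and Benjamini-Hochberg adjustment at 0.05, 0 of the 46 members were higher and 0 were lower, and 0% of the 21916 genes tested were called in either direction. No member reached an unadjusted p under 0.05, while 2064 higher genes and 3325 lower genes did. The smallest adjusted p among the members was 0.211, for Psmb1. DESeq2 called 0 members, with 3.56% of all genes called higher and 1.18% lower, and none of the 46 had an unadjusted p under 0.05 by it. limma-voom called 0 members and 0% of genes, with 1 member lower at an unadjusted p under 0.05. In what follows the values are therefore a description unless a test is named.

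Without KO 3, edgeR called 8 members higher and 0 lower, where 18.8% of all genes were called higher and 22% lower. These were Psmc3, Psmd8, Psmd11, Psmd12, Psmd13, Psme3, Psmf1 and Psmc3ip. Without KO 4, it called 3 members higher, Psmb10, Psme1 and Psme4, and 2 lower, Psmb1 and Psmg4, where 22.4% of all genes were called higher and 12.7% lower. The fits had no called member in common. The share of all genes called in both fits was not counted, so such overlaps have no background here or for the lists below. Each fit has 1 library on the knockout side, which is assumed to vary as the controls do.

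Counted by position, both KO-labelled libraries lay above both controls for 12 of the 46 members in CPM scaled by TMM, the trimmed mean of M-values. The share over the 11788 genes of at least 5 CPM was 42.7%. The 12 were Psma7, Psmb7, Psmc1, Psmc2, Psmc3, Psmc4, Psmd2, Psmd6, Psmd12, Psme3, Psmf1 and Psmg2. Both libraries lay below both controls for 3 members, Psmb1, Psmg1 and Psmg4, where the share over the same genes was 12%. Over all 21916 genes tested, scarce ones included, the shares were 26.9% above and 33.1% below. These positions move with the scaling. Upper-quartile scaling left 0 members above both controls and 19 below, against 15.8% and 31.3% of all genes. Scaling by library size alone left 0 and 7, against 13.5% and 21.7%, and centring each library on its median left 0 and 5, against 19% and 18.2%. Of 38 named genes followed singly through the fits, some had a positive log2 fold change in the main fit and a negative one with upper-quartile scaling. These were Psma1, Psma4, Psma7, Psmb7, Psmb10, Psmc1, Psmc2, Psmc4, Psmd3, Psmd6, Psmd8, Psme1 and Psmg2. With library size alone the same held for all of these but Psmd6, and for Psme4. Other members, Psmc6 and Psmd2 among them, were not followed singly, so their signs under these scalings are not given.

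**Figure D1:**
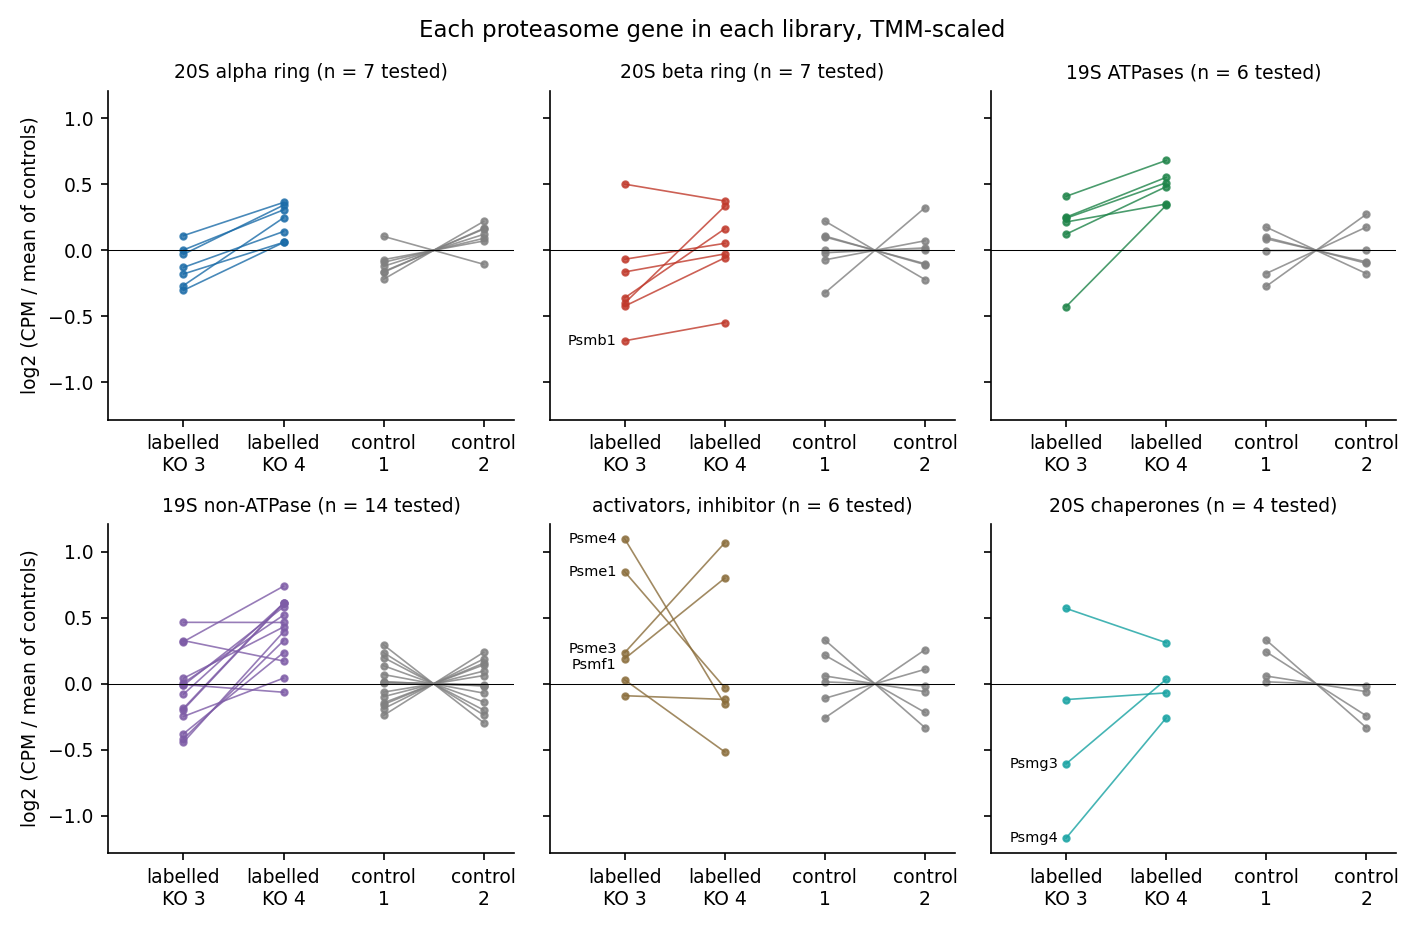
Level of tested proteasome genes in each library as the log2 ratio to the mean of the controls (TMM-scaled CPM), in 6 panels by role. Psmb10 and Psmc3ip are not shown. Coloured points are KO 3 and KO 4, grey points the controls, and lines join the libraries of a group. All 6 ATPases and all 7 alpha subunits were higher in KO 4 than in KO 3, and Psmb1 was below the controls in both.

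Promoters of 40 of the 48 members were found in the RefSeq promoter table, which holds 250 bases before to 50 bases after each gene's start (GRCm38.p6). CCGGAAG, the core to which ETS factors bind, was present on either strand in 15 of the 40, or 37.5%, and in 9.93% of the 27025 genes of the table. It was in 6 of the 9 members above both controls that have a promoter there, in 1 of the 2 below both, and in 8 of the 28 other tested members. CCAAT, the NF-Y box, was in 35% of the members against 41.1% of all genes. TGACNNNGC, the antioxidant response element that NFE2L1 and NFE2L2 bind, was in 15% against 14%. Both strands were searched for each motif, and none of the 3 contains another. The genes of the table were not limited to those expressed in these libraries, so these shares are not matched for expression. The following 120 bases upstream are shown for 3 members above both controls, from an ATPase, a non-ATPase subunit and an activator, and for 1 member below both, with the ETS core in capitals and its complement CTTCCGG where it lies on the other strand.
Psmc2 (chr5:21785155-21785274, plus strand): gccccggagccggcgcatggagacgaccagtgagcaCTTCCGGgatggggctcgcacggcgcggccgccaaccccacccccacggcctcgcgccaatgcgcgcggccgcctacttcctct
Psmd2 (chr16:20651532-20651651, plus strand): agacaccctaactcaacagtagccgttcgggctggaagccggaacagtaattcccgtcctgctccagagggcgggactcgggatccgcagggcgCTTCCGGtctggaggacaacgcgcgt
Psme3 (chr11:101316093-101316212, plus strand): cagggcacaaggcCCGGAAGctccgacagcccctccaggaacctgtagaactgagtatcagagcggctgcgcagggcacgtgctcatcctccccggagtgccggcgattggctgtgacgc
Psmg1 (chr16:95990961-95991080, minus strand): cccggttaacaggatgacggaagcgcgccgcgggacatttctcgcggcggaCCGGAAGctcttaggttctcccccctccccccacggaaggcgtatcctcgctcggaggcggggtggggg
The core begins 84 bases before the RefSeq start in Psmc2, 26 in Psmd2, 107 in Psme3 and 69 in Psmg1. The same letters were present in a member on each side of the controls, and a match is a description of the sequence, not of binding.

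The alpha ring was close to the controls. The 7 tested alpha subunits form the outer rings and the gate of the barrel. Their median log2 fold change was 0.01, from -0.12 to 0.24. Beside 42.7% and 12% of genes of at least 5 CPM, 1 of 7 lay above both controls and 0 below. That member was Psma7, at 150 and 178 CPM in KO 3 and KO 4 and 149 and 129 CPM in Controls 1 and 2 (log2 fold change 0.24, SE 0.262, edgeR adjusted p = 0.570), so KO 3 was level with Control 1. Psma4 had 117 and 145 CPM against 111 and 123 CPM (0.16), and Psma1 had 130 and 168 CPM against 119 and 148 CPM (0.16). In both, KO 4 was above the controls and KO 3 lay between them. Psma2 had 114 and 147 CPM against 130 and 153 CPM, with a log2 fold change of -0.12. All 7 were higher in KO 4 than in KO 3.

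In the beta ring, Psmb1 had the smallest p of all members. Psmb1 (ENSMUSG00000014769, chromosome 17, 15475021 to 15499751, minus strand, GRCm38) encodes a beta subunit without a catalytic site of its own. It was at 154 and 169 CPM in KO 3 and KO 4 and at 244 and 250 CPM in the controls, so the groups did not overlap and the libraries within each group lay close together. The log2 fold change was -0.62 (SE 0.253, 95% interval -1.26 to 0.03, edgeR adjusted p = 0.211 with 2 libraries in each group), and it was negative in every alternative fit, from -1.08 to -0.36. Psmb1 was called lower without KO 4 (-0.69, edgeR adjusted p = 0.0372) and not without KO 3 (-0.52, adjusted p = 0.104). Set against the median beta subunit of its own library, the FPKM of Psmb1 was 0.488 and 0.450 in KO 3 and KO 4 and 0.715 and 0.745 in the controls, a ratio that no scaling factor can change.

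The other beta subunits had smaller differences than Psmb1. In KO 3, 5 of the 7, Psmb1 included, lay below both controls, and in KO 4 Psmb1 alone did, where the shares over genes of at least 5 CPM were 28.4% and 23.4%. The catalytic subunit Psmb7, which cleaves after basic residues, was at 86.4 and 79.1 CPM against 48.8 and 76.3 CPM (log2 fold change 0.40, SE 0.309, edgeR adjusted p = 0.424). Both libraries lay above both controls, by little over Control 2. Psmb5, the target of bortezomib and the member with the highest mean FPKM, had 93.5 and 121 CPM against 146 and 108 CPM (-0.25, adjusted p = 0.607), and the groups overlapped. Psmb2 had 83.9 and 92.3 CPM against 89.4 and 98.9 CPM (-0.10). Psmb3 had 121 and 201 CPM against 159 and 159 CPM (0.01), and Psmb4 had 134 and 192 CPM against 184 and 160 CPM (-0.08). In both, KO 3 was the lowest of the libraries and KO 4 the highest. Psmb6 had a log2 fold change of -0.01. Over the 7 the median was -0.08, with -0.36 in KO 3 and 0.05 in KO 4.

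Subunits of alternative proteasomes were scarce or variable. Psmb10, which takes the place of Psmb7 in the immunoproteasome, was at 35.8 CPM in KO 3 and 11.1 CPM in KO 4, and at 22.5 and 12.7 CPM in the controls. It was the highest of the 4 libraries in one and the lowest in the other, and the log2 fold change of 0.41 had an SE of 0.647 (edgeR adjusted p = 0.692). The FPKM ratio of Psmb10 to Psmb7 was 0.832 and 0.281 in KO 3 and KO 4 and 0.927 and 0.33 in Controls 1 and 2, so within each pair 1 library was far above the other. Markers of leukocytes, cells rich in immunoproteasomes, took 0.0163% and 0.0361% of gene counts against 0.0971% and 0.0889%, with all 8 markers detected in each library; their part in the Psmb10 values was not tested. Psma8, the alpha subunit of testis, and Psmb11, the beta subunit of the thymic cortex, had no more than 16 counts in any library.

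The 19S ATPases stood higher against the beta ring in both KO-labelled libraries. The geometric mean FPKM of the 6 ATPases was 0.953 and 1.01 times that of the 7 beta subunits in these libraries, and 0.731 and 0.749 times in the controls. The difference was 0.40 on the log2 scale, where libraries of a group had a pooled SD of 0.0441, and without Psmb1 it was 0.32. Of the 42 pairs of an ATPase and a beta subunit, 27 had a higher ratio in both KO-labelled libraries than in both controls. The ratio was lower in both for 0 pairs, and in the rest the groups overlapped. Against the alpha ring the ATPases had ratios of 1.15 and 1.17, and of 1.03 and 0.912 in the controls. The 17 19S subunits over the 14 core subunits gave 0.784 and 0.854 against 0.693 and 0.654. No test of these ratios was run, and with 2 libraries against 2 an exact two-sided permutation test cannot go below 0.33. They were chosen after values had been seen, and they do not depend on the scaling of the libraries.

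**Figure D2:**
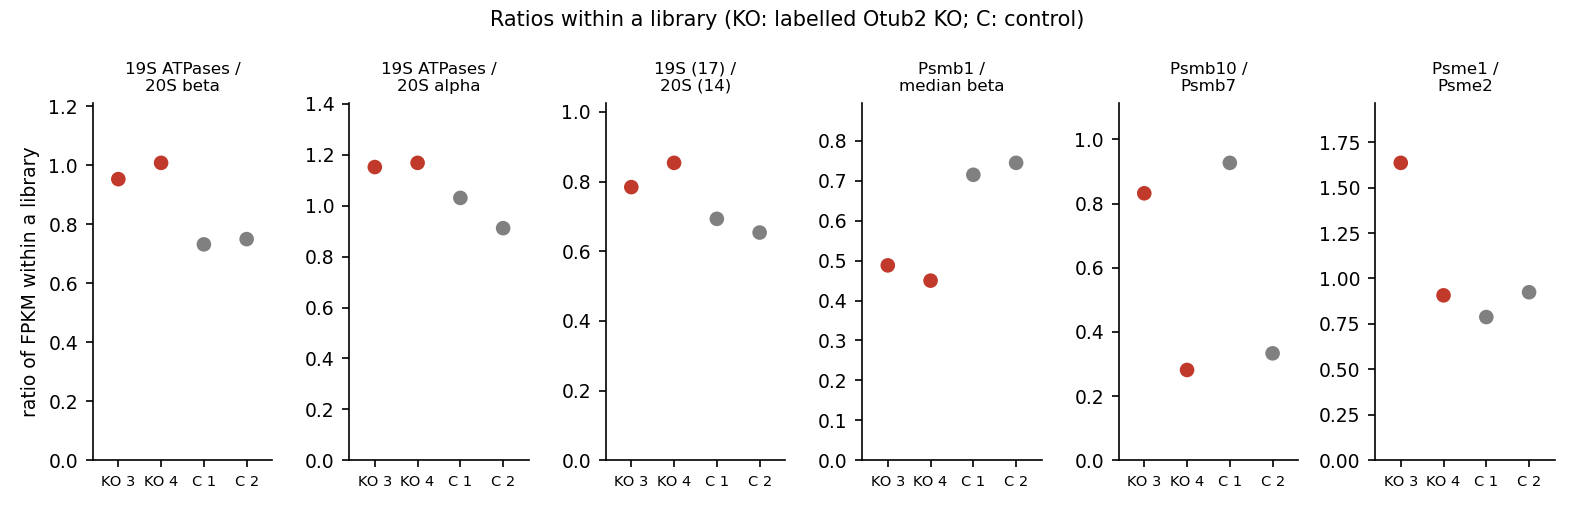
Ratios of FPKM between proteasome genes within each library (vertical axes from 0, no unit), for the KO-labelled libraries (KO 3, KO 4, red) and the controls (C 1, C 2, grey). The first 4 ratios separate the groups, with 0.953 and 1.01 against 0.731 and 0.749 for the ATPases over the beta ring, whereas Psmb10 over Psmb7 and Psme1 over Psme2 overlap.

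Of the 6 ATPases, 4 lay above both controls and 0 below, where the shares over genes of at least 5 CPM were 42.7% and 12%, and their median log2 fold change was 0.35. With upper-quartile scaling, library size alone, median centring or the filter at 5 CPM, 0 of the 6 lay above both. Psmc3 (ENSMUSG00000002102, chromosome 2, 91054009 to 91066369, plus strand) had 190 and 230 CPM in KO 3 and KO 4 and 153 and 134 CPM in Controls 1 and 2 (0.55, SE 0.267, edgeR adjusted p = 0.256). It was called higher without KO 3 (0.70, adjusted p = 0.0195) and not without KO 4 (0.40, adjusted p = 0.229). Psmc1 had 155 and 186 CPM against 131 and 131 CPM (0.38), Psmc2, whose promoter is printed above, had 121 and 150 CPM against 90.3 and 115 CPM (0.40), and Psmc4 had 113 and 145 CPM against 110 and 97.8 CPM (0.31). In each of these the groups did not overlap, and KO 4 was the highest. Psmc6 and Psmc5 overlapped with the controls, with log2 fold changes of 0.26 and -0.0033. Psmc5 was at 127 CPM in KO 3 and 216 CPM in KO 4, on either side of the controls at 193 and 151 CPM.

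The non-ATPase genes divided by library. These 14 genes encode the lid, which carries the deubiquitinase Psmd14, the scaffolds Psmd1 and Psmd2, the ubiquitin receptor Psmd4, and the base chaperones Psmd5, Psmd9 and Psmd10. Their median difference from the controls was -0.04 in KO 3 and 0.45 in KO 4 on the log2 CPM scale. Above both controls lay 3 of 14 and below both 0, where the shares over genes of at least 5 CPM were 42.7% and 12%. The lid subunit Psmd12 had 111 and 149 CPM against 80.8 and 98.7 CPM (log2 fold change 0.54, SE 0.284, edgeR adjusted p = 0.282), with no overlap. The lid subunit Psmd6 had 109 and 109 CPM against 71.0 and 88.2 CPM (0.46, adjusted p = 0.297), equal in both libraries. Psmd2, the most abundant 19S non-ATPase gene per length, had 304 and 398 CPM against 298 and 292 CPM (0.25), so KO 3 was barely above the controls.

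Psmd3, Psmd8, Psmd11 and Psmd13, all of the lid, lay within or below the range of the controls in KO 3 and above both in KO 4. Psmd3 had 150 and 214 CPM against 151 and 148 CPM, and Psmd8 had 103 and 166 CPM against 120 and 99.1 CPM. Psmd11 had 95 and 166 CPM against 109 and 108 CPM, and Psmd13 had 92.0 and 160 CPM against 120 and 91.1 CPM. The last 3 of these were called higher without KO 3, with log2 fold changes of 0.63, 0.64 and 0.63 and edgeR adjusted p of 0.0389, 0.0370 and 0.0397. Without KO 4 none of them was called, with log2 fold changes of -0.09, -0.20 and -0.20. Psmd14 was likewise below both controls in KO 3, at 71.0 CPM, and above both in KO 4, at 119 CPM, against 80.3 and 112 CPM. The 3 base chaperones had log2 fold changes between -0.04 and 0.01.

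Activators of the core did not share a pattern across the libraries. Psme3 encodes the nuclear activator PA28 gamma, and Psme1 and Psme2 encode the interferon-inducible PA28 alpha and beta. Psme3 (ENSMUSG00000078652, chromosome 11, 101316213 to 101323537, plus strand) was at 82.8 and 147 CPM in KO 3 and KO 4 and at 73.2 and 67.4 CPM in Controls 1 and 2 (log2 fold change 0.71, SE 0.351, edgeR adjusted p = 0.260). KO 4 was 1.07 above the controls in log2 CPM, and the call without KO 3 (1.10, adjusted p = 0.00016) was not made without KO 4 (0.23, adjusted p = 0.519). Psmf1, the proteasome inhibitor PI31 and the tested member with the lowest mean FPKM, had 16.1 and 24.6 CPM against 14.3 and 14 CPM (0.53, adjusted p = 0.386).

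Psme4, the activator PA200, and Psme1 ran the other way. Psme4 was at 343 CPM in KO 3 and 144 CPM in KO 4, and at 134 and 192 CPM in Controls 1 and 2 (log2 fold change 0.58, SE 0.485, edgeR adjusted p = 0.460). Psme1 was at 93.7 CPM in KO 3 and 51.0 CPM in KO 4, and at 60.5 and 44.8 CPM in Controls 1 and 2 (0.46, adjusted p = 0.458). For both genes KO 3 was above the controls and KO 4 lay between them, and both were called higher without KO 4 and not without KO 3. Psme2, the partner of Psme1, did not share this, with 45.7 and 44.9 CPM against 61.3 and 38.7 CPM. The FPKM ratio of Psme1 to Psme2 was therefore 1.64 in KO 3, against 0.907 in KO 4 and 0.788 and 0.924 in the controls. Salivary and cardiac markers were high in KO 3 as well, and their part in these values was not tested.

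Assembly chaperones of the core, Psmg1 to Psmg4, included 2 of the 3 members below both controls, beside 12% of genes of at least 5 CPM. Psmg4 was at 4.89 and 9.19 CPM in KO 3 and KO 4 and at 13 and 9.30 CPM in Controls 1 and 2 (log2 fold change -0.66, SE 0.500, edgeR adjusted p = 0.418). KO 4 was level with Control 2, and the gene was called lower without KO 4 (-1.19, adjusted p = 0.00292) and not without KO 3 (-0.25, adjusted p = 0.516). Psmg1, whose promoter is printed above, had 25.6 and 26.5 CPM against 28.1 and 27.5 CPM (-0.09), a gap smaller than its SE of 0.275. Psmg3 had 7.26 and 11.3 CPM against 13.9 and 8.79 CPM (-0.29), and Psmg2 had 24.2 and 20.2 CPM against 16.9 and 15.6 CPM (0.45, adjusted p = 0.394). The partners therefore did not share a direction.

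Psmc3ip is matched by its symbol and is no proteasome subunit: it encodes a partner of the recombinases of meiosis, named for its binding to Psmc3. It had 2.23 and 12 CPM in KO 3 and KO 4, and 2.24 and 2.56 CPM in Controls 1 and 2 (log2 fold change 1.57, SE 0.859, edgeR adjusted p = 0.293). KO 4 alone was high, with 248 counts against 32 in KO 3 and 32 and 35 in the controls. Psmc3ip overlaps Mlx on the opposite strand, and the strand setting of the counting is not given in the sources used here.

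**Figure D3:**
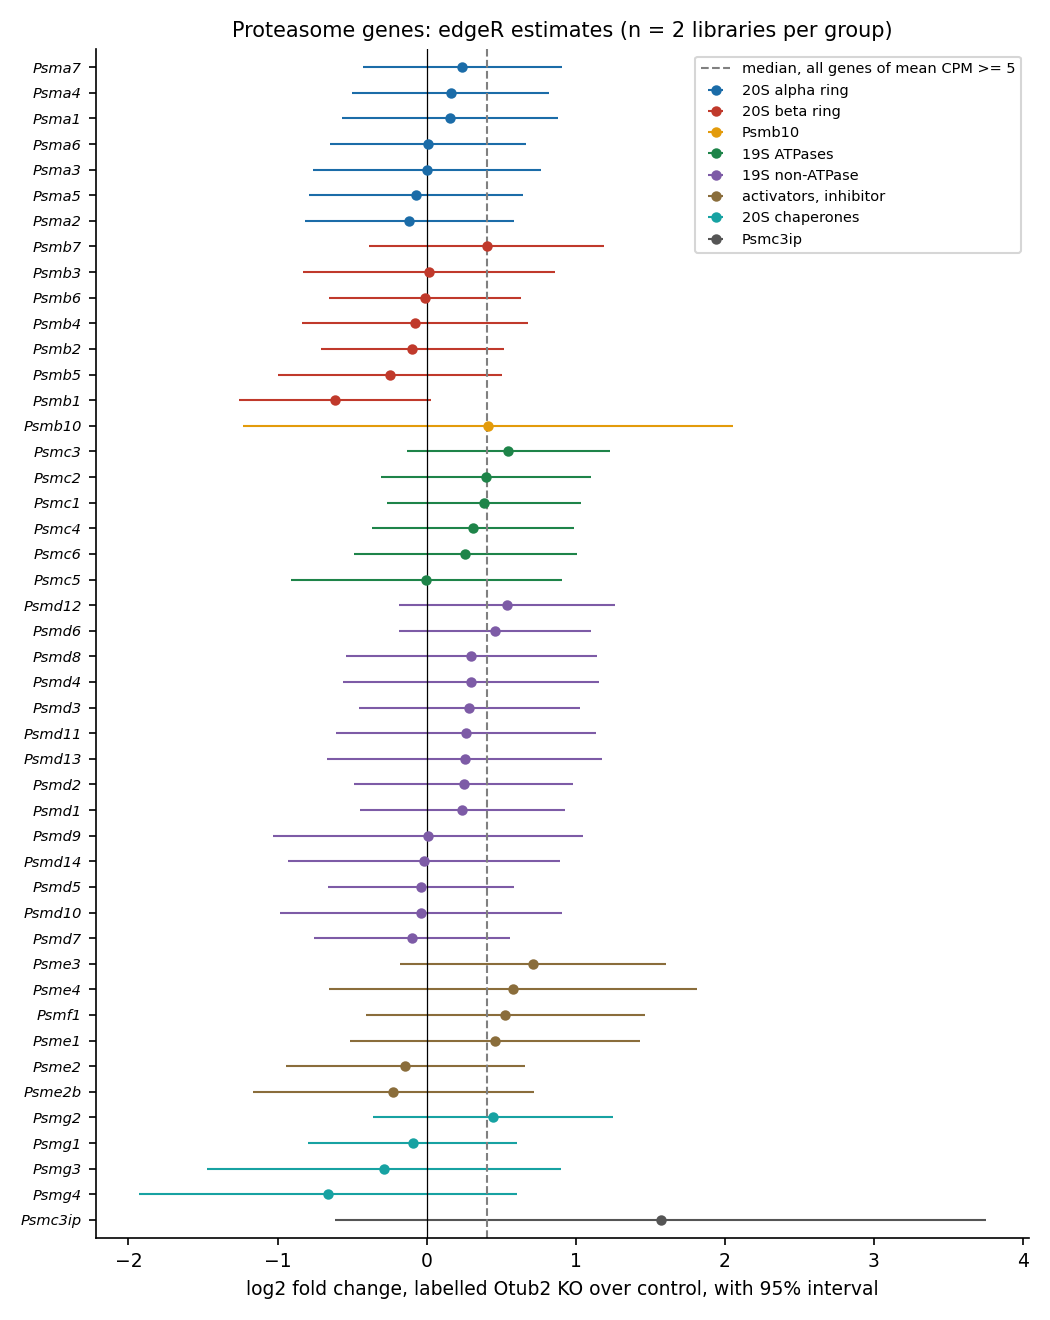
Log2 fold change of each of the 46 tested members, KO-labelled libraries over controls, from edgeR with its 95% interval (n = 2 libraries per group), coloured by role; the dashed line is the median of all genes of at least 5 CPM, 0.41. Every interval includes 0, the ATPases lie to the right of most of the core subunits, and Psmb1 and Psmg4 lie furthest to the left.

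The KO-labelled libraries differed from each other across the members. KO 4 was above KO 3 for 36 of 46, or 78.3%, where the share over all genes of at least 5 CPM was 54.1%. KO 3 lay above both controls for 16 members and below both for 18, with 58.1% and 28.4% over all genes. KO 4 lay above both for 29 and below both for 5, with 64.2% and 23.4% over all genes. The median difference from the controls was -0.05 in KO 3 and 0.32 in KO 4, and 0.28 and 0.35 over all genes of at least 5 CPM. The members therefore lay well under the median of genes at that level in KO 3 and close to it in KO 4. Over all genes tested the medians were -0.03 and -0.07. Only 1 library stands on each side, so this difference has no test.

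**Figure D4:**
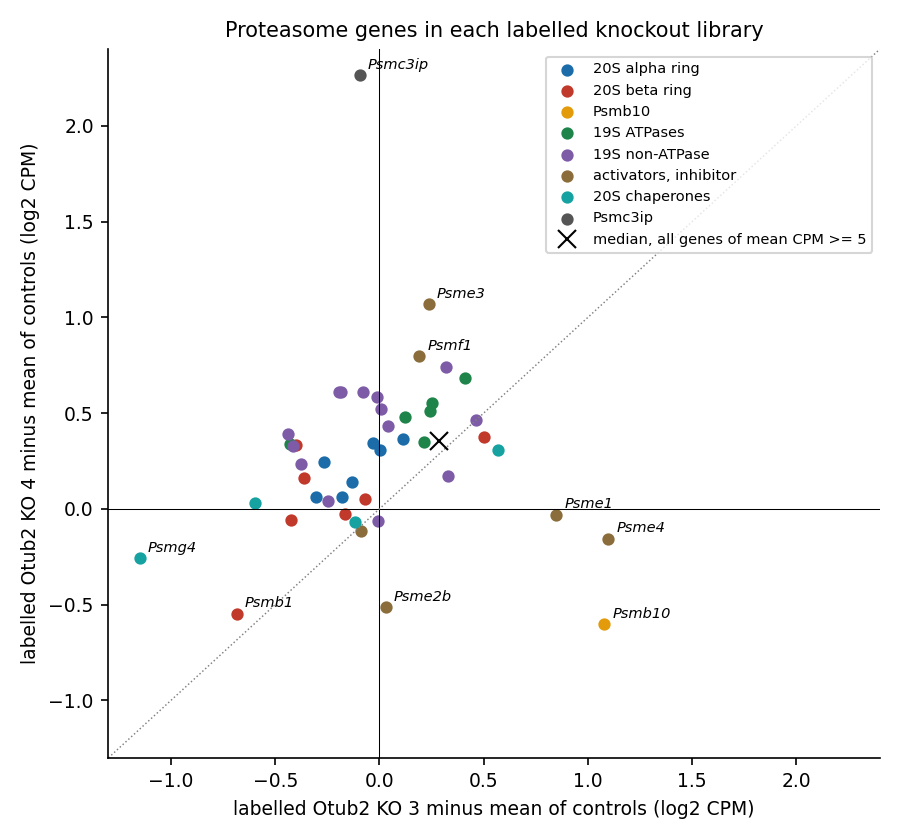
Difference from the mean of the controls in log2 CPM for each tested member, in KO 3 (horizontal) and 4 (vertical), coloured by role; the cross is the median of all genes of at least 5 CPM, at 0.28 and 0.35, and the dotted line marks equal values. Most members lie above the line; Psmb10, Psme4 and Psme1 lie far to its right, Psmc3ip is high in KO 4 alone, and Psmb1 is low in both.

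Set against genes of at least 5 CPM, a level that 45 of the 46 members reach, the members had the lower median, and set against every gene tested they had the higher one. Their median log2 fold change was 0.20, and that of all genes of at least 5 CPM was 0.41, a gap of -0.21. The gap kept its sign in the 15 alternative fits, but a scaling factor moves both medians nearly alike and could hardly change it. Where it could change, it was -0.25 with no filter and -0.24 with the filter at 5 CPM. With 1 library left out it ran from -0.36 without KO 4 to -0.05 without KO 3. Over all 21916 genes tested the median was 0.09, below that of the members. The absolute value did not keep its sign. Upper-quartile scaling, library size alone and centring each library on its median moved the median of all genes by -0.47, -0.44 and -0.31, and the members' median was then -0.27, -0.23 and -0.11. Relative to all genes of at least 5 CPM in the same library, 4 members lay over the median in both KO-labelled libraries and 23 in neither, where 30.1% of those genes lay over it in both and 30.1% in neither. For the 14 constitutive core subunits these counts were 1 and 12, and for the 17 19S subunits they were 3 and 4, with 12 of the 17 over it in KO 4.

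As a share of all gene counts, the members took 0.294% and 0.617% in KO 3 and KO 4 and 0.539% and 0.547% in the controls. Without the salivary and cardiac marker genes in the total the shares were 0.409% and 0.617%, and 0.539% and 0.547% in the controls, so the share in KO 3 was still the lowest. In these bulk samples, fewer cells of a type and less RNA of a gene per cell cannot be told apart.

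Fold changes also ran with gene length. Over all genes of at least 5 CPM the median log2 fold change was 0.07 in the shortest of 10 length classes and 0.54 in the longest, and Control 1 minus Control 2 ran the opposite way, with 0.20 and -0.17. Across the 46 members Spearman's rho between length and log2 fold change was 0.30, and across the 11788 genes it was 0.18; these points share their libraries and are not independent. Set against the median of their own length class, the ATPases had a median of 0.0027 and the 14 non-ATPase genes -0.15, with 2 of these 14 above 0. The alpha subunits had -0.14, the beta subunits -0.30, and all members -0.13.

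**Figure D5:**
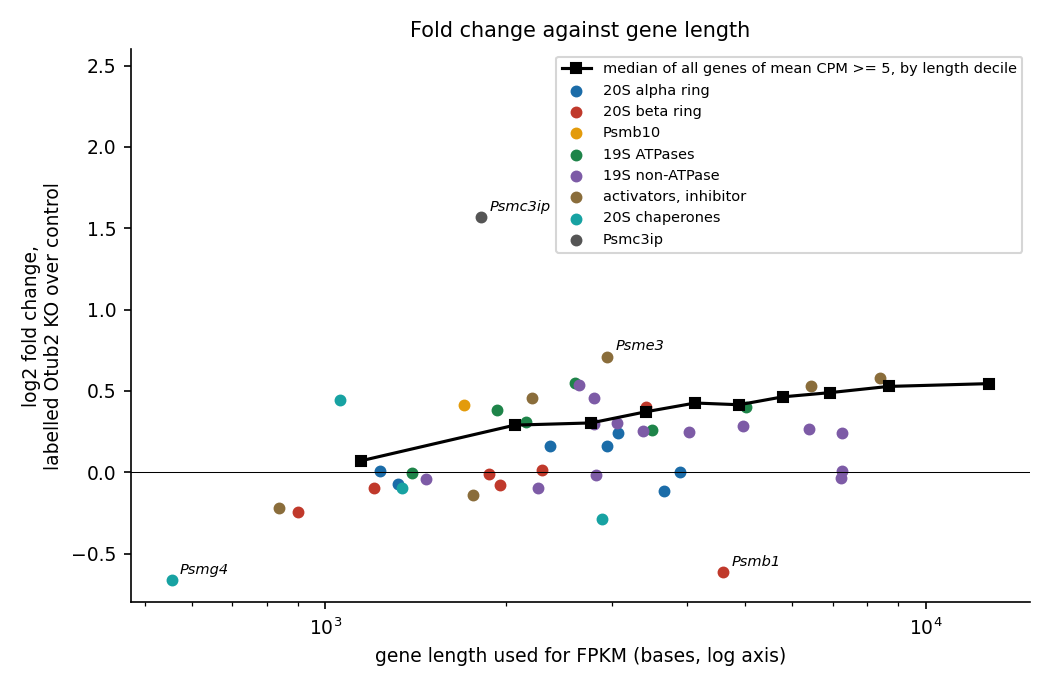
Log2 fold change, KO-labelled libraries over controls, against the gene length behind the deposited FPKM (bases, log axis), with members coloured by role and black squares for the median of all genes of at least 5 CPM in each of 10 length classes. The black line climbs with length from 0.07 to 0.54. Most core subunits, non-ATPase genes and chaperones lie below it while the ATPases lie about it.

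Levels per length set the members in an order that the libraries shared. Psmb5 was the most abundant by FPKM, at 64.7 and 145 FPKM in KO 3 and KO 4 and 185 and 137 FPKM in the controls, and it ranked first in all but KO 4, where Psmc5 did with 168 FPKM. Psmf1 had the lowest mean FPKM of the tested members, at 1.56 and 4.14 FPKM against 2.53 and 2.50 FPKM. By role, the median FPKM of the beta subunits was 42.6 and 88.6 against 84.6 and 84.0, and that of the ATPases was 39 and 84.1 against 62.6 and 55.5. The chaperones Psmg1 to Psmg4 had medians of 8.66 and 19.3 FPKM against 21 and 18.1 FPKM. Across the 46 members Spearman's rho between libraries was 0.926 to 0.955 over the 6 pairs, as a description across genes. Some members changed rank more. Psmb1 was at rank 23 and 26 in KO 3 and KO 4 and at rank 14 and 12 in the controls. Psme4 was at rank 20 and 37 against 37 and 29, and Psme1 at rank 18 and 33 against 26 and 35. The controls also differed from each other, with Psme2 at rank 22 in Control 1 and 33 in Control 2.

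Some members have near-identical copies that could take their reads. A search of GENCODE transcripts found 25 copies of 15 members, at 90% identity or more over at least 300 bases, and their counts came to between 2.03% and 2.47% of the members' counts in each library. Psma3 is the uncertain case. Gm13835, a processed pseudogene on chromosome 6 (31141979 to 31142663, minus strand, GRCm38), is identical to its transcript over 665 bases. The copies of Psma3 had counts equal to 59.6% and 58.8% of those of Psma3 in KO 3 and KO 4 and 64.9% and 64.4% in the controls. Copies of Psma5 had 9.60% and 15.7% against 14.7% and 13%. Psme2 and Psme2b are both members and are 99.4% identical over 794 bases, so the counts of each are uncertain. The single copy of Psmb1 had no more than 5 counts in any library. In the annotation 17 of the 48 members overlap a gene on the opposite strand, such as Psmc3 with Slc39a13, Psme1 with Emc9 and Psmd13 with Sirt3, and 10 overlap one on their own strand, so their counts may include reads of the neighbour. Psmb1 and Psme3 overlap none.

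Genes that work with the proteasome were read from 4 lists of 35 genes, of which 34 were found and tested. edgeR called 0 of them, and before adjustment 9 higher and 0 lower ones had a p under 0.05, where 9.42% and 15.2% of all genes tested did. Without KO 3 it called 15 higher and 0 lower, beside 18.8% and 22% of all genes, and without KO 4 it called 9 higher and 2 lower, beside 22.4% and 12.7%. DESeq2 called 1 higher, the transcription factor Nfe2l1, and 0 lower, where it called 3.56% of all genes higher and 1.18% lower. Nfe2l1 was at 351 and 277 CPM in KO 3 and KO 4 and at 147 and 137 CPM in the controls, well apart (log2 fold change 1.15, SE 0.278, edgeR adjusted p = 0.166; DESeq2 1.19, adjusted p = 0.0318). edgeR also called it higher without KO 3 (0.99, adjusted p = 0.000689) and without KO 4 (1.30, adjusted p = 4.10e-06). The related factor Nfe2l2 had 253 and 256 CPM against 314 and 421 CPM (-0.53, edgeR adjusted p = 0.295). Of the 11 genes of NFE2L1, its processing and its partners, 7 lay above both controls and 1 below, where the shares over genes of at least 5 CPM were 42.7% and 12%. The 7 became 3, 2 and 3 with upper-quartile scaling, library size alone and median centring. Sel1l, of the ubiquitin ligase of the endoplasmic reticulum, had 228 and 120 CPM against 75.2 and 74.0 CPM (1.22, adjusted p = 0.171). Its ligase Syvn1 had 85.5 and 79.8 CPM against 53.3 and 52.7 CPM (0.64, adjusted p = 0.191). Both were called higher without KO 3 and without KO 4, Sel1l with log2 fold changes of 0.71 and 1.61 (edgeR adjusted p = 0.0188 and 4.12e-09) and Syvn1 with 0.62 and 0.69 (adjusted p = 0.0490 and 0.0312).

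Ubiquitin genes did not share a direction. Ubb, which encodes a chain of ubiquitin units, had 513 and 529 CPM in KO 3 and KO 4 and 346 and 342 CPM in Controls 1 and 2 (log2 fold change 0.60, edgeR adjusted p = 0.237). Rps27a, which encodes ubiquitin fused to a ribosomal protein, had 252 and 441 CPM against 718 and 634 CPM (-0.96, adjusted p = 0.204). The groups overlapped in neither gene. Without KO 3 edgeR called Ubb and the E1 enzyme Uba1 higher, and without KO 4 it called Rps27a lower.

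Among the 15 ubiquitin receptors, shuttle factors and other proteins that bind the proteasome, 9 lay above both controls and 1 below, beside 42.7% and 12% of genes of at least 5 CPM. The 9 became 5, 1 and 3 with upper-quartile scaling, library size alone and median centring. Ubqln4, a shuttle factor, had 104 and 81.9 CPM in KO 3 and KO 4 and 49.9 and 50.5 CPM in Controls 1 and 2 (log2 fold change 0.89, edgeR adjusted p = 0.168). Zfand2a, which is induced by arsenite, had 24.6 and 39.9 CPM against 15.6 and 14.9 CPM (1.08, adjusted p = 0.180). Ubqln4, Zfand2a and Ube3c were called higher without KO 3 and also without KO 4. The 2 tested assembly and import factors both lay below the controls. Pomp, the maturation factor of the core, had 95.2 and 112 CPM against 135 and 123 CPM (-0.32, adjusted p = 0.438), and Akirin2, which carries proteasomes into the nucleus, had 24.3 and 28.3 CPM against 33.0 and 29.5 CPM (-0.25, adjusted p = 0.583). Paaf1 was not analysed here.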

How the data were processed

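Read counts per gene, with FPKM derived from them, were deposited by the authors for 4 libraries; HISAT2, DESeq and the human build GRCh38 are named in the submitters' processing notes without version or role, while the gene identifiers are mouse. Which tool counted the reads, and with which strand setting, is not given in the sources used here. The deposited FPKM are counts per kilobase scaled to the library total, as their values show. Knockout columns, headed OE, were matched to titles by number; 0 columns of per-sample values were left unused. The 14785 features without a gene name, at 0.914% to 2.84% of counts, were left out.

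Counts of all genes were tested with edgeR 4.0.16 (R 4.3.3; TMM, filterByExpr, Benjamini-Hochberg adjustment at 0.05), with DESeq2 1.42.0 and limma-voom 3.58.1 as alternatives. Coordinates come from GENCODE release M21, promoters from RefSeq, and copies from BLAST 2.17.0. The tests were checked on simulated data. Members, lists and tests were chosen with earlier results of these data known; library sizes from the genes tested, rather than from all genes, were settled on after both had been run, and within-library ratios, gaps to the median of all genes and length classes were added after values were seen. Genes named with values in every library were up to 4 of each role by p, tissue-restricted members, the highest and lowest FPKM, the 3 whose libraries differed most, and up to 3 of each list; further members were named after their values were seen. Some genes of the lists are counted but not reported here by name.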

Additional observations from a re-analysis of the deposited data

How the results depend on the processing

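No paired analysis was possible because the groups share no replicate number (1 and 2 against 3 and 4). The 11 alternative fits that used all 4 libraries changed no call of a member or list, except that DESeq2 called 1 gene of the NFE2L1 list. Library sizes over all gene counts, added after the data had been seen, changed no direction and no count. Leaving out 1 library gave 0 to 8 members higher and 0 to 2 lower, 16 to 31 above both controls and 6 to 20 below, and a median log2 fold change from -0.083 to 0.33. By list, the calls then ran from 0 to 7 higher for associated proteins, 0 to 5 for NFE2L1, and 0 to 3 higher and 0 to 2 lower for ubiquitin and E1 genes. By role, members above and below both controls ran from 1 to 5 and 0 to 4 for the alpha ring, 1 to 3 and 1 to 5 for the beta ring, 4 to 13 and 0 to 5 for the non-ATPase genes, 2 to 4 and 0 to 1 for activators and inhibitor, 0 to 1 and 1 to 2 for Psmb10 with Psmb11, and 0 to 1 and 0 to 1 for Psmc3ip. ATPases below ran from 0 to 1, chaperones below from 1 to 3, and associated and NFE2L1 genes below from 1 to 2 each.

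Scaling and filters set the absolute values, through the median of all genes. With upper-quartile scaling, library size alone, median centring and the filter at 5 CPM, the members' median was -0.27, -0.23, -0.11 and -0.17, with 0 above both controls in each and 19, 7, 5 and 16 below. With features without a gene name kept it was 0.46, with 25 above and 1 below, and against length classes it was -0.13. RLE size factors and leaving out salivary and cardiac genes each left 1 below. In these same settings no role had over 8 members above (non-ATPase genes, unnamed features kept) or over 6 below (beta ring, upper-quartile scaling and the filter at 5 CPM); the non-ATPase genes had 5 above with RLE and with no filter and 3 below with upper-quartile scaling and the filter at 5 CPM, the alpha ring 4 above with unnamed features kept and 5 below with upper-quartile scaling, and activators 2 below. Chaperones below were 0, and assembly factors 0 or 1, with RLE, without salivary and cardiac genes, with no filter and with unnamed features kept. Associated proteins above were 5, 1 and 3 with upper-quartile scaling, library size alone and median centring, and NFE2L1 genes 3, 2 and 3. Without Psmb1 the ATPase over beta difference was 0.32.

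Over the 38 named genes followed singly through the fits, 57 of 569 values reversed, in 21 genes, and the cause was not tested. With upper-quartile scaling these were Psma1 -0.30, Psma4 -0.30, Psma7 -0.23, Psmb7 -0.060, Psmb10 -0.071, Psmc1 -0.082, Psmc2 -0.064, Psmc4 -0.16, Psmd3 -0.18, Psmd6 -0.0079, Psmd8 -0.17, Psme1 -0.017 and Psmg2 -0.024. With library size alone they were Psma1 -0.24, Psma4 -0.24, Psma7 -0.17, Psmb7 -0.055, Psmb10 -0.23, Psmc1 -0.023, Psmc2 -0.0042, Psmc4 -0.084, Psmd3 -0.091, Psmd8 -0.057, Psme1 -0.093, Psme4 -0.020 and Psmg2 -0.027. Median centring gave Psma1 -0.12, Psma4 -0.12, Psma7 -0.049 and Psmb10 -0.056, and the filter at 5 CPM gave Psma1 -0.17, Psma4 -0.17, Psma7 -0.090, Psmc4 -0.019, Psmd3 -0.044 and Psmd8 -0.033. With unnamed features kept, Akirin2 was 0.0091, Psma2 0.14, Psmb2 0.16, Psmb5 0.015 and Psmg1 0.16, and with no filter Psma2 was 0.019, Psmb2 0.036 and Psmg1 0.037. Leaving out 1 library gave ranges of -0.045 to 0.36 for Psma1, -0.31 to 0.081 for Psma2, -0.0039 to 0.33 for Psma4, -0.17 to 0.0087 for Psmb2, -0.44 to 0.0034 for Psmb5, -0.64 to 1.02 for Psmb10, -0.11 to 2.34 for Psmc3ip, -0.089 to 0.63 for Psmd8, -0.019 to 0.83 for Psme1, -0.15 to 1.07 for Psme4 and -0.65 to 0.092 for Psmg3. At 2 libraries a group, the 95% intervals of the members were 1.23 to 4.37 log2 units wide, which limits what could pass.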
